A study of Mus musculus with 12 samples.

Results

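The genes described here are a Notch ligand, the receptors, the sheddase, the nuclear cofactors and the classical targets of Notch signalling. They were chosen by name, but with earlier results of these data known. They were Jag1, Notch1, Notch2, Adam10, Rbpj, Maml1, Hey1 and Hes1. Of these 8 genes, 7 were measured among 12850 genes in all, and Hes1 was not analysed here. In thioglycollate-elicited peritoneal exudate cells (PECs) of mice, LPS raised Jag1, Notch1, Notch2 and Rbpj, and lowered Adam10 and Hey1. Jag1 was 3.47-fold higher at 4 hr than at 0 hr and 4.56-fold higher at 8 hr in the mean of both genotypes. None of the 7 genes passed the test between S513A and WT cells, although Jag1, Notch1, Notch2 and Rbpj lay lower in S513A than in WT at 0 hr and higher at 8 hr.

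Notch receptors are single-pass proteins that are activated by ligands of the Jagged and Delta-like families on a neighbouring cell. Ligand binding allows a metalloprotease, mainly ADAM10, to cut the receptor near the membrane, and gamma-secretase then releases its intracellular domain. This domain moves to the nucleus, joins the DNA-binding protein RBPJ and recruits Mastermind-like coactivators, and the complex switches on repressors of the Hes and Hey families. In macrophages the pathway is known for its interplay with Toll-like receptor signalling, in which Jag1 itself is an inflammatory response gene.

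The PECs came from wild-type C57BL/6 mice (WT) or from mice in which both copies of Zc3h12a, the gene of the ribonuclease Regnase-1, carry the serine-to-alanine change S513A. All mice received 2 ml of 4% thioglycollate in the peritoneum 3.5 days before the cells were taken. Cells of each genotype were left without LPS (0 hr) or were treated with 100 ng/ml LPS for 4 or 8 hr, and each of these 6 groups had 2 libraries, 12 in all. The S513A mice were made by genome editing in fertilised C57BL/6J eggs, and the mutation was carried by every cell of the animal. The labels did not say whether the 2 libraries of a group came from separate mice or cultures, so the p-values measure only the spread between these libraries, which may be technical.

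Polyadenylated RNA was measured as log2 CPM, where CPM is the reads of a gene scaled to a fixed library size of 1000000, and each library held between 9525979 and 12439960 reads on the listed genes. A count of 3 reads corresponded to a log2 CPM of between -2.04 and -1.30, depending on the library. All 8 macrophage markers were present at a summed 16754 to 27848 CPM. Tnf, an early target of LPS, lay between 4.88 and 5.61 log2 CPM in the 0 hr libraries and between 9.73 and 11.45 with LPS, and Zc3h12a itself was read at 4.99 to 5.39 log2 CPM at 0 hr in both genotypes, a value that does not show the mutation. Replicates differed along lines that many genes shared, and a single factor held 39.2% of the variance between replicates, and along it WT 4 hr replicate 2 (a score of 0.60), S513A 8 hr replicate 1 (0.61) and S513A 4 hr replicate 2 (-0.56) lay farthest from 0. Among all genes, the loading on this factor was at percentile 95.2 for Notch2, 94 for Notch1, 93.6 for Hey1, 91.4 for Maml1 and 86 for Jag1, and values without one of these libraries are given beside the results that it moved most. At 0 hr the factor scores also separated the genotypes, with 0.27 and 0.17 in WT and -0.15 and -0.29 in S513A. At 8 hr they were -0.12 and -0.27 in WT and 0.61 and -0.22 in S513A. A fit with these scores as a term, added after seeing the data, is described in the last section. The scores come from the same libraries, so that fit cannot separate the factor from the genotype. Summed fibroblast markers (4 of 5 listed) ranged from 36.3 to 72.6 CPM over the WT 4 hr libraries, from 18.0 to 50.7 over the S513A 4 hr libraries and from 19.7 to 53.1 over the S513A 8 hr libraries, and their part in the Notch values was not tested.

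The start sites of the 4 genes that rose with LPS are shown first, because they rose together. Of the 7 genes, 6 had a sequence in the RefSeq promoter table (GRCm38.p6), and Hey1 had none there. The 250 bases before the start site were searched on both strands for the core of the RBPJ binding site, TGGGAA, and for the NF-kappaB consensus, and matches are in capitals. The core was found in 21.6% of all 32851 promoters of this length, and the NF-kappaB consensus in 7.25%. In the sequences below, each written 5′ to 3′ on the strand of the gene, Jag1 is at chr2:137116521-137116770 (minus strand), Notch1 at chr2:26503823-26504072 (minus strand), Notch2 at chr3:98013288-98013537 (plus strand) and the first of 2 Rbpj entries at chr5:53590096-53590345 (plus strand), inside the RefSeq span of that gene rather than before it.
Jag1: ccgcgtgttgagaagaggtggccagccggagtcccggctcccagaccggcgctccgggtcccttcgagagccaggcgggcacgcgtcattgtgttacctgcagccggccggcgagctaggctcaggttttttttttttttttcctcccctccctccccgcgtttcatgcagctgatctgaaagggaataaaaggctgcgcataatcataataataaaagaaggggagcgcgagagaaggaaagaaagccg
Notch1: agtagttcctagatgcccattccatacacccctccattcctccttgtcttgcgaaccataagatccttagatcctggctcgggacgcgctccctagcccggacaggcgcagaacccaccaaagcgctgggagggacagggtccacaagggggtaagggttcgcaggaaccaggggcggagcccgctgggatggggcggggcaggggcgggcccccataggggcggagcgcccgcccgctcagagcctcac
Notch2: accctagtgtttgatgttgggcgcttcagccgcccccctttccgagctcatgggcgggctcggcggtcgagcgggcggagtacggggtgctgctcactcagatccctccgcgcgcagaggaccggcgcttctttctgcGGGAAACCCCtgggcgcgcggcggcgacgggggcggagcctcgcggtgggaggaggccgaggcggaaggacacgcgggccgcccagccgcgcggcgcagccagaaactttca
Rbpj: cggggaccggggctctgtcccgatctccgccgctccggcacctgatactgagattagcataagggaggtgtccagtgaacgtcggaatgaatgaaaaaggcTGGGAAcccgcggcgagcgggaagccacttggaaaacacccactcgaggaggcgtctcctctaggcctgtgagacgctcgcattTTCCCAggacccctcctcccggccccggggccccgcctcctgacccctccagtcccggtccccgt
The Rbpj sequence held 2 copies of the core, on opposite strands, that begin 149 and 65 bases before the start, and Notch2 held 1 NF-kappaB match, GGGAAACCCC, that begins 112 bases before it and reads as the consensus on both strands. The windows of Jag1, Notch1, Adam10 and Maml1 held neither set of letters. These matches describe the letters of the windows and no binding was measured.

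**Figure D1:**
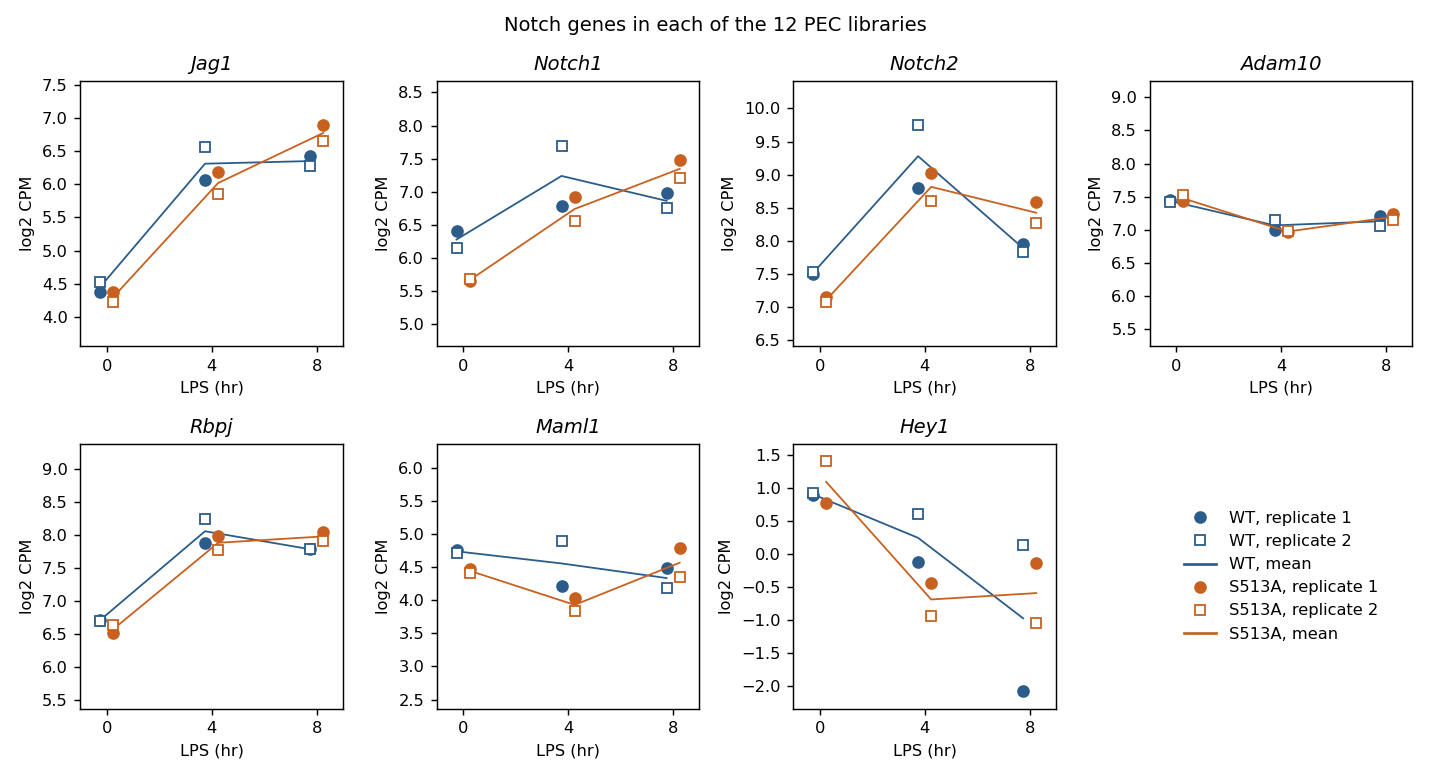
Each panel shows the log2 CPM of 1 gene (vertical axis, spanning 4 log2 units in every panel) against hours of LPS (horizontal axis) in WT (blue) and S513A (orange) libraries, with replicate 1 filled, replicate 2 open and lines through the group means. Jag1 climbs from 4.22 to 4.52 at 0 hr to between 5.86 and 6.89 with LPS in every library, and WT 4 hr replicate 2 lies above its pair for the 7 genes.

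Jag1 (Entrez 16449, chr2:137081451-137116520 of GRCm38, minus strand), the Jagged ligand of the set, had the largest log2 fold change of the 7 genes after 8 hr, in the mean of the genotypes. WT libraries had a log2 CPM of 4.37 and 4.52 before LPS, of 6.06 and 6.56 after 4 hr and of 6.43 and 6.27 after 8 hr. S513A libraries had 4.37 and 4.22 before LPS, 6.18 and 5.86 after 4 hr and 6.89 and 6.65 after 8 hr. No library with LPS overlapped the 0 hr libraries in either genotype. Such separation was common: between all libraries of these times, 49.1% of all genes did not overlap at 4 against 0 hr and 43.7% at 8 against 0 hr. The share within a genotype was not computed. In the mean of the genotypes the log2 fold change reached 1.79 ± 0.12 (SE) after 4 hr (by limma, adjusted p = 4.97e-07) and 2.19 ± 0.12 after 8 hr (adjusted p = 1.32e-07), where adjusted p is the Benjamini-Hochberg value over all 11885 genes tested and 0.05 is the threshold throughout. From 4 to 8 hr Jag1 rose by a further 0.40 (adjusted p = 0.0394), but the libraries of these times overlapped in WT. This later step kept its call when WT 4 hr replicate 2, S513A 4 hr replicate 1 or S513A 8 hr replicate 2 was left out, and lost it without any other single library, with adjusted p-values of up to 0.136.

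Notch1 (Entrez 18128, chr2:26457902-26503822, minus strand), a receptor of lymphoid and myeloid cells, rose about 2-fold. WT libraries stood at 6.42 and 6.14 log2 CPM before LPS, at 6.79 and 7.69 after 4 hr and at 6.98 and 6.75 after 8 hr. S513A libraries stood at 5.65 and 5.68 before LPS, at 6.92 and 6.56 after 4 hr and at 7.48 and 7.21 after 8 hr. The 0 hr libraries lay below all others of their genotype, while 4 and 8 hr overlapped in WT. Of all genes, 49.1% did not overlap between all libraries of 4 and 0 hr, and 43.7% between those of 8 and 0 hr. The rise was 2.02-fold at 4 hr (log2 fold change 1.02 ± 0.18, adjusted p = 5.59e-04) and 2.19-fold at 8 hr (1.13 ± 0.18, adjusted p = 3.45e-04). Without WT 4 hr replicate 2 the change at 4 hr was 0.79 (adjusted p = 2.92e-04), and without S513A 4 hr replicate 2 it was 1.11 (adjusted p = 0.00103). Within WT alone the change at 4 hr was 0.96 (adjusted p = 0.0103), and it was no longer called without WT 0 hr replicate 2 (0.82, adjusted p = 0.0772) or without WT 4 hr replicate 2 (0.51, adjusted p = 0.0527).

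Notch2 (Entrez 18129, chr3:98013538-98150367, plus strand), another receptor, peaked at 4 hr. In WT the pair of libraries read 7.50 and 7.53 log2 CPM before LPS, 8.80 and 9.75 after 4 hr and 7.95 and 7.83 after 8 hr. In S513A the pair read 7.15 and 7.07 before LPS, 9.03 and 8.60 after 4 hr and 8.59 and 8.26 after 8 hr. All 4 hr libraries lay above all 8 hr libraries of their genotype, and these above 0 hr. Between all libraries of 2 times, 23.6% of all genes did not overlap at 8 against 4 hr, 49.1% at 4 against 0 hr and 43.7% at 8 against 0 hr. The log2 fold change was 1.73 ± 0.18 at 4 hr (adjusted p = 1.21e-05) and 0.85 ± 0.18 at 8 hr (adjusted p = 0.00286), and from 4 to 8 hr Notch2 fell by 0.89 (adjusted p = 0.00475). Without WT 4 hr replicate 2 the change at 4 hr was 1.50 (adjusted p = 2.36e-06) and that from 4 to 8 hr was -0.65 (adjusted p = 0.00268).

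Rbpj (Entrez 19664, chr5:53555779-53657445, plus strand), the DNA-binding protein that all the receptors share, rose at 4 hr and was still raised at 8 hr. WT libraries read 6.72 and 6.70 log2 CPM before LPS, 7.87 and 8.23 after 4 hr, and both 7.78 after 8 hr. S513A libraries read 6.52 and 6.63, then 7.98 and 7.78, then 8.05 and 7.90. The log2 fold change was 1.32 ± 0.09 at 4 hr (adjusted p = 4.98e-07) and 1.24 ± 0.09 at 8 hr (adjusted p = 1.09e-06), or 2.50-fold and 2.36-fold. Between 4 and 8 hr the difference was -0.09 (95% confidence interval -0.29 to 0.12, adjusted p = 0.53).

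Adam10 (Entrez 11487, chr9:70678944-70780229, plus strand), the protease of the first cut, fell slightly. It read 7.46 and 7.42 log2 CPM in WT before LPS, 6.99 and 7.14 after 4 hr and 7.20 and 7.05 after 8 hr. In S513A it read 7.44 and 7.52, then 6.97 and 6.98, then 7.24 and 7.15. Every library with LPS lay below every 0 hr library of its genotype. Between all libraries of these times, 49.1% of all genes did not overlap at 4 against 0 hr and 43.7% at 8 against 0 hr. The 4 hr level was 73.8% of that at 0 hr (log2 fold change -0.44 ± 0.07, adjusted p = 3.58e-04) and the 8 hr level 81.5% (-0.30 ± 0.07, adjusted p = 0.00579). In these bulk samples, fewer cells that express a gene and less of its RNA per cell cannot be told apart.

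Maml1 (Entrez 103806, chr11:50255634-50293131, minus strand), a Mastermind-like coactivator of the RBPJ complex, passed in no comparison. It read 4.76 and 4.71 log2 CPM in WT before LPS, 4.22 and 4.89 after 4 hr and 4.48 and 4.18 after 8 hr. In S513A it read 4.48 and 4.41, then 4.03 and 3.83, then 4.78 and 4.35. Only WT 4 hr replicate 2 and S513A 8 hr replicate 1 lay above both 0 hr libraries of their genotype. The log2 fold change was -0.35 ± 0.15 at 4 hr (adjusted p = 0.0749) and -0.14 ± 0.15 at 8 hr (adjusted p = 0.489). Without WT 4 hr replicate 2 the 4 hr value was -0.52 and passed (adjusted p = 0.00582).

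Hey1 (Entrez 15213, chr3:8663359-8667038, minus strand), a repressor and direct target of the RBPJ complex, was near the limit of detection and fell. It had 26 and 24 reads in WT before LPS, 10 and 16 after 4 hr and 2 and 11 after 8 hr. In S513A it had 19 and 31 reads, then 7 and 4, then 10 and 4. The WT 8 hr replicate 1 library lay under the 3-read floor, and Hey1 reached 1 CPM in only 6 libraries, 2 of them with LPS. The log2 fold change was -1.22 ± 0.46 at 4 hr (adjusted p = 0.044) and -1.77 ± 0.46 at 8 hr (adjusted p = 0.00896), and the latter was -1.22 without WT 8 hr replicate 1 (adjusted p = 0.022). The 4 hr call was lost, with adjusted p-values of 0.0568 to 0.133, without WT 4 hr replicate 1, without either S513A library of 4 hr, or without any 1 library of 0 hr. It was also lost with quantile normalization (-1.05, adjusted p = 0.0976) and with a prior without a trend (adjusted p = 0.0518).

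In the mean of the genotypes, 6 of the 7 genes passed at 4 hr against 0 hr, 4 higher and 2 lower, where 55.8% of all genes tested passed. At 8 hr against 0 hr also 6 passed, 4 higher and 2 lower, beside 46.1% of all genes. The same 0 hr libraries served both comparisons. From 4 to 8 hr 2 passed, Jag1 higher and Notch2 lower, beside 25.6% of all genes. Over the 7 genes the median change in log2 CPM was 1.02 after 4 hr and 0.85 after 8 hr, against 0.02 and -0.0007 over all genes.

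Within WT, 5 of the 7 genes passed at 4 hr (41.3% of all genes) and 4 at 8 hr (34.3%). Within S513A, 6 passed at 4 hr (43.2%) and 5 at 8 hr (39.9%). Jag1, Rbpj and Adam10 passed in all 4 of these comparisons. The 4 hr call of Adam10 in S513A (-0.50, adjusted p = 0.00217) did not rest on a single library. Its value stayed between -0.55 and -0.46 with single libraries left out. The other calls of Adam10 within a genotype rested on single libraries and on the processing. With only the libraries compared, limma lost its call at 4 hr in WT (adjusted p = 0.125) and at 8 hr in S513A (0.0798). With a prior without a trend its 8 hr calls were lost (0.0542 in WT and 0.067 in S513A). Median-ratio scaling also lost that of S513A (0.0538). Without a library outside the groups compared, the fold change of Adam10 stayed the same and only the estimate of spread moved. Its 4 hr call in WT was lost without either WT library of 0 hr or WT 4 hr replicate 1 (adjusted p-values of 0.0517 to 0.0773). Its 8 hr call in WT was lost without any library of 0 hr or either WT library of 8 hr (0.0554 to 0.237), and that in S513A without any single library other than those of WT at 4 hr (0.0605 to 0.212). Notch1 and Notch2 passed at 8 hr in S513A, with log2 fold changes of 1.68 ± 0.25 (adjusted p = 3.79e-04) and 1.32 ± 0.26 (adjusted p = 0.0022), but not in WT, where the values were 0.58 (adjusted p = 0.0947) and 0.37 (adjusted p = 0.284). By limma on the WT libraries of 0 and 8 hr alone, the same values passed (adjusted p = 0.00251 for Notch1 and 0.00395 for Notch2). The missing WT calls thus depend on the spread taken over all 12 libraries. Without S513A 8 hr replicate 1 the S513A values were 1.54 (adjusted p = 0.00336) and 1.15 (adjusted p = 0.0177). A call in S513A and none in WT does not show that the genotypes differ, and the test of that difference follows. Hey1 passed at 4 hr in S513A (-1.78, adjusted p = 0.0483) and at 8 hr in WT (-1.87, adjusted p = 0.0475), and both calls lay close to the threshold. The S513A call was lost without any library of 0 hr or either S513A library of 4 hr (adjusted p-values of 0.0683 to 0.22), with quantile normalization and with a prior without a trend. Without WT 8 hr replicate 1, which had 2 reads, the WT value was -0.77 (adjusted p = 0.344). Leaving out WT 0 hr replicate 2 took the WT calls at 4 hr from 5 to 3, and leaving out WT 8 hr replicate 1 or any of the 4 libraries of 0 hr took those at 8 hr from 4 to 2.

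**Figure D2:**
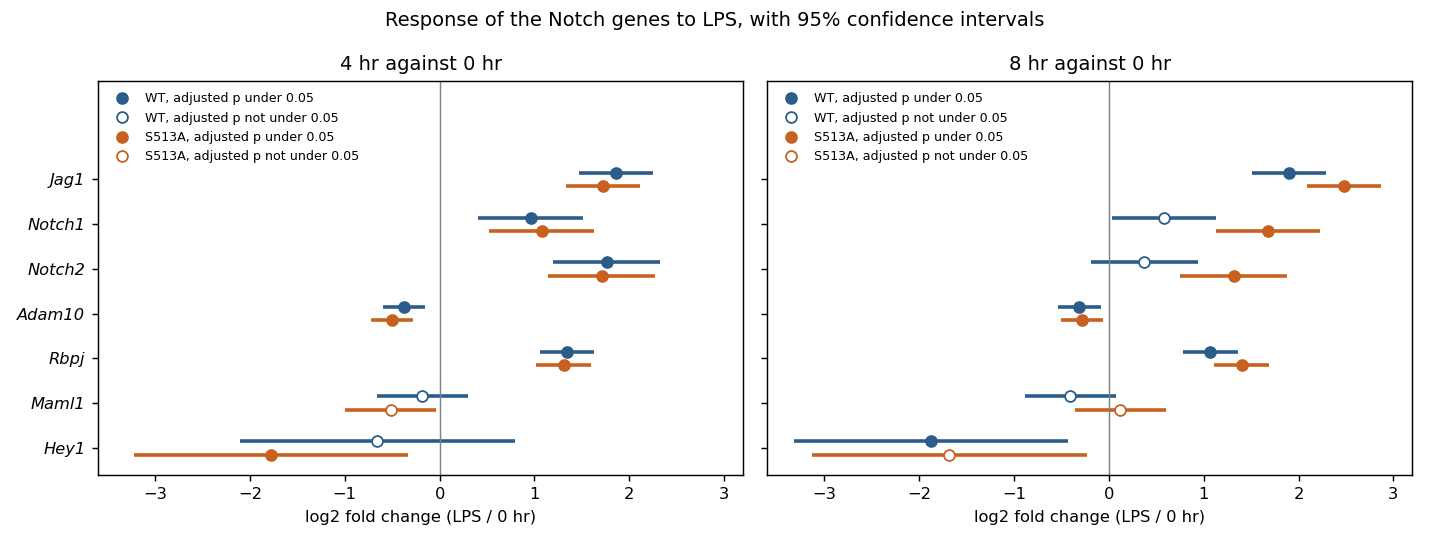
Log2 fold change of each gene at 4 hr (left) and 8 hr (right) of LPS against 0 hr, in WT (blue) and S513A (orange), with 95% confidence intervals as lines and filled points where adjusted p was under 0.05. Jag1 lies at 1.86 and 1.72 at 4 hr and at 1.90 in WT and 2.48 in S513A at 8 hr, and Notch1 and Notch2 at 8 hr are filled in S513A and open in WT.

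The study asked whether the S513A change, which alters the amount of Regnase-1 protein, affects the transcripts that this ribonuclease degrades, and compared the expression of all genes between S513A and WT cells. No gene of the set passed between S513A and WT at 0 hr, 4 hr or 8 hr or in the mean of the times, where 0.0337%, 0.0168%, 0.0337% and 0.0673% of all genes passed. limma on voom weights from the recovered reads also called 0 of the 7 in each. At an unadjusted p under 0.05, 1 gene of the set was found at each time: Notch1 at 0 hr, Maml1 at 4 hr and Jag1 at 8 hr, beside 949, 833 and 1487 of all 11885 genes.

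At 0 hr Notch1 was lower in S513A by a log2 fold change of -0.61 (95% confidence interval -1.16 to -0.06, adjusted p = 0.586) and Notch2 by -0.41 (-0.97 to 0.16, adjusted p = 0.598). For Jag1, Notch1, Notch2, Rbpj and Maml1 the S513A libraries were both below the WT pair, and 57.5% of all genes did not overlap between the genotypes at this time. For Jag1 the gap between the nearest libraries was the smallest, 20.7 CPM in each. Fitted on the 4 libraries of 0 hr alone, Notch1 and Notch2 passed (adjusted p = 0.0403 for each), but so did 5.83% of all genes, where the fit over all 12 libraries called 0.0337%. Summed neutrophil markers (2 of 6 listed) were 20.3 to 35.4 CPM in WT and 51.1 to 54.2 in S513A at this time. Most of this was S100a8, at 20.2 to 106 CPM over all libraries, while Camp lay at 0.035 to 3.48. The sums overlapped at 4 hr (45.4 to 64.9 in WT, 53.3 to 108 in S513A) and at 8 hr (84.2 to 102 in WT, 33.55 to 86.9 in S513A). The part of these markers in the Notch values was not tested.

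At 4 hr the values were -0.50 for Notch1, -0.46 for Notch2, -0.29 for Jag1, -0.17 for Rbpj and -0.63 for Maml1 (adjusted p = 0.622 for all but Rbpj, 0.623). These rested on replicate 2 of each genotype. Without WT 4 hr replicate 2 Notch1 was at -0.05, Notch2 at 0.01, Jag1 at -0.04, Rbpj at 0.01 and Maml1 at -0.29. Without S513A 4 hr replicate 2 Notch1 was at -0.32, Notch2 at -0.25, Jag1 at -0.13, Rbpj at -0.07 and Maml1 at -0.53. Libraries of the genotypes overlapped for Jag1, Notch1, Notch2 and Rbpj at this time, and 28.2% of all genes did not overlap. Those of Maml1, Adam10 and Hey1 did not overlap and lay lower in S513A. For Adam10 the nearest libraries were at 6.98 log2 CPM in S513A and 6.99 in WT.

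At 8 hr Jag1 was higher in S513A by 0.42 (95% confidence interval 0.03 to 0.81, adjusted p = 0.395), Notch1 by 0.48 (-0.07 to 1.03, adjusted p = 0.414), Notch2 by 0.53 (-0.03 to 1.10, adjusted p = 0.403) and Rbpj by 0.19 (-0.10 to 0.48, adjusted p = 0.48). For each of these 4 genes the S513A libraries were both above the WT pair, and 53.6% of all genes did not overlap between the genotypes at this time. Without S513A 8 hr replicate 1 the differences were 0.30, 0.35, 0.37 and 0.12. Summed markers of resident peritoneal macrophages (4 of 5 listed) were 48.1 to 55.9 CPM in WT and 29.2 to 33.3 in S513A at this time. They were lower in S513A at the other times too. The sums were 24.9 to 27.5 CPM in WT and 19.5 to 23.8 in S513A at 0 hr, and 38.6 to 44.3 and 26.1 to 35.1 at 4 hr. The part of these markers in the Notch values was not tested.

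The interaction asks whether the LPS response itself differed between the genotypes. At 4 hr none of the 7 genes passed, with 0% of all genes, and none had an unadjusted p under 0.05, beside 144 of all genes. At 8 hr none passed, with 0% of all genes, but 3 had an unadjusted p under 0.05, beside 2405 of all genes, and voom again called 0. These 3 were Notch1, with an excess rise in S513A of 1.10 ± 0.35 log2 (adjusted p = 0.193), Notch2 with 0.94 ± 0.36 (adjusted p = 0.211) and Jag1 with 0.58 ± 0.25 (adjusted p = 0.237). Rbpj had 0.33 ± 0.19 (adjusted p = 0.308) and Maml1 0.53 ± 0.31 (adjusted p = 0.323), while Adam10 had 0.03 (95% confidence interval -0.29 to 0.34). Without S513A 8 hr replicate 1 the excess was 0.96 for Notch1, 0.78 for Notch2, 0.46 for Jag1, 0.26 for Rbpj and 0.31 for Maml1, with adjusted p-values of 0.573 to 0.715. Without WT 4 hr replicate 2 the values stayed as given, and the adjusted p-values of Notch1, Notch2 and Jag1 were 0.0777, 0.0777 and 0.0942.

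**Figure D3:**
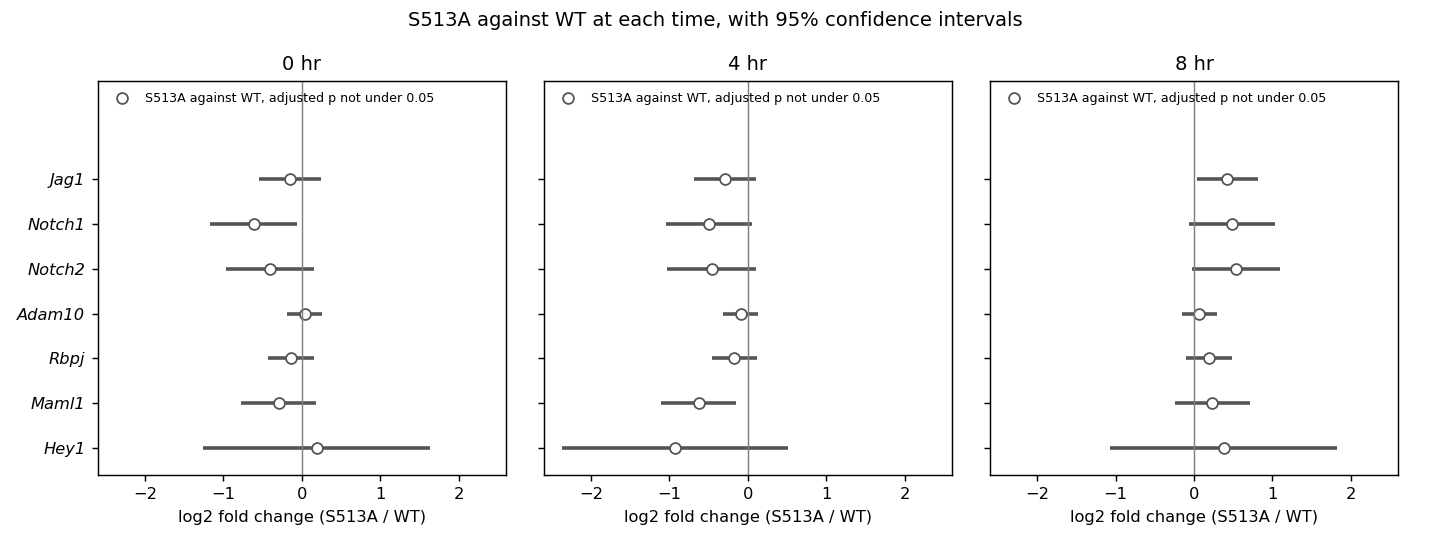
Log2 fold change of S513A against WT for each gene at 0, 4 and 8 hr of LPS, with 95% confidence intervals as lines and open points because no adjusted p was under 0.05. Jag1, Notch1, Notch2 and Rbpj lie left of 0 at 0 and 4 hr, from -0.61 to -0.14, and right of 0 at 8 hr, from 0.19 to 0.53.

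To compare levels between genes, CPM was divided by the length of the merged exons of each gene in kb. In WT at 0 hr the order was Adam10 (34.9 to 35.8 CPM per kb), Notch2 (16.8 to 17.2), Rbpj (8.16 to 8.28), Notch1 (4.97 to 6.00), Maml1 (4.74 to 4.91), Jag1 (3.56 to 3.94) and Hey1 (0.566 to 0.577), with no overlap of neighbours. At 4 hr Notch2 had rank 1 in both genotypes, at 41.4 to 80.1 CPM per kb in WT and 36.0 to 48.5 in S513A. Jag1 had rank 6 at 0 hr and rank 4 at 4 and 8 hr, with 17.3 to 20.4 CPM per kb in S513A at 8 hr. Neighbours whose libraries overlapped were Notch1 and Jag1 in S513A at 0 hr, Jag1 and Notch1 in WT at 4 hr, and both Notch2 and Adam10 and Rbpj and Jag1 in S513A at 8 hr. The order depends on the length used: with the longest transcript, 5.485 kb for Rbpj in place of 12.75 kb of merged exons, Rbpj had rank 2 in WT at 0 hr (19.0 to 19.2 CPM per kb) and rank 1 in S513A at 8 hr (43.6 to 48.3). At 4 hr by that length Rbpj and Notch2 overlapped in both genotypes. In WT Notch2 kept rank 1 (42.5 to 82.3 against 42.8 to 54.9 CPM per kb). In S513A Rbpj had rank 1 (40.0 to 46.1 against 37.0 to 49.8 CPM per kb), so the first place of Notch2 there holds only for merged exons.

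**Figure D4:**
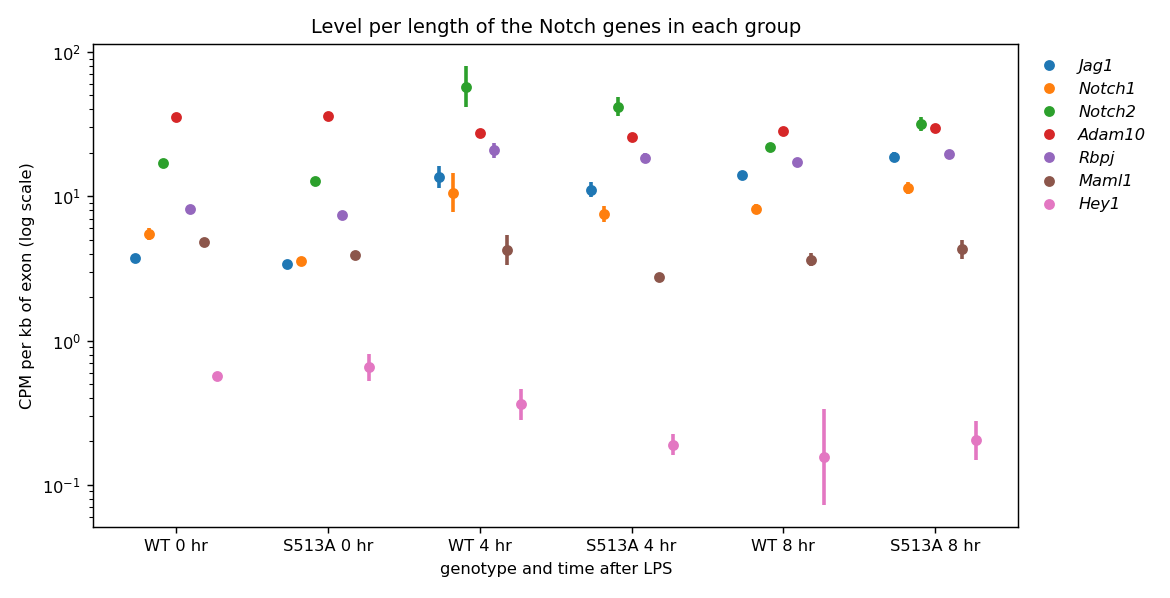
CPM per kb of merged exon (log scale) of the 7 genes in each of the 6 groups, with points at the geometric mean and lines from the lower to the higher of the 2 libraries. Notch2 (green) passes Adam10 (red) at 4 hr, and Hey1 (pink) stays under 1 CPM per kb in all groups.

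Some reads of these genes may belong to neighbours. Non-coding genes on the opposite strand overlap 7.5% and 2.91% of the merged exons of Notch1 and 2.44% of those of Maml1, and 1 on the same strand overlaps 5.02% of those of Notch2. None of these neighbours was listed, and reads were counted without regard to strand. Rbpj has processed copies elsewhere in the genome, also not listed, so its reads are uncertain to that extent.

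The other genes of the pathway were taken from a list of 68 genes by role, of which 54 were listed and 53 were tested. At 4 hr 15 rose, 16 fell and 22 did not pass, where 55.8% of all genes passed. At 8 hr 15 rose, 14 fell and 24 did not pass, beside 46.1% of all genes. Of the 53 genes, 4 (Dll1, Notch4, Mfng and Neurl1b) reached 1 CPM at a single time only, so that the filter favoured a direction. Without them 14 rose and 14 fell at 4 hr, and 15 rose and 12 fell at 8 hr, of 49. Over all 53 tested genes of the list the median log2 fold change was 0.01 at 4 hr and -0.0038 at 8 hr, close to the 0.02 and -0.0007 of all genes. From 4 to 8 hr 10 rose, 7 fell and 36 did not pass, beside 25.6% of all genes. None passed between the genotypes or in an interaction.

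**Figure D5:**
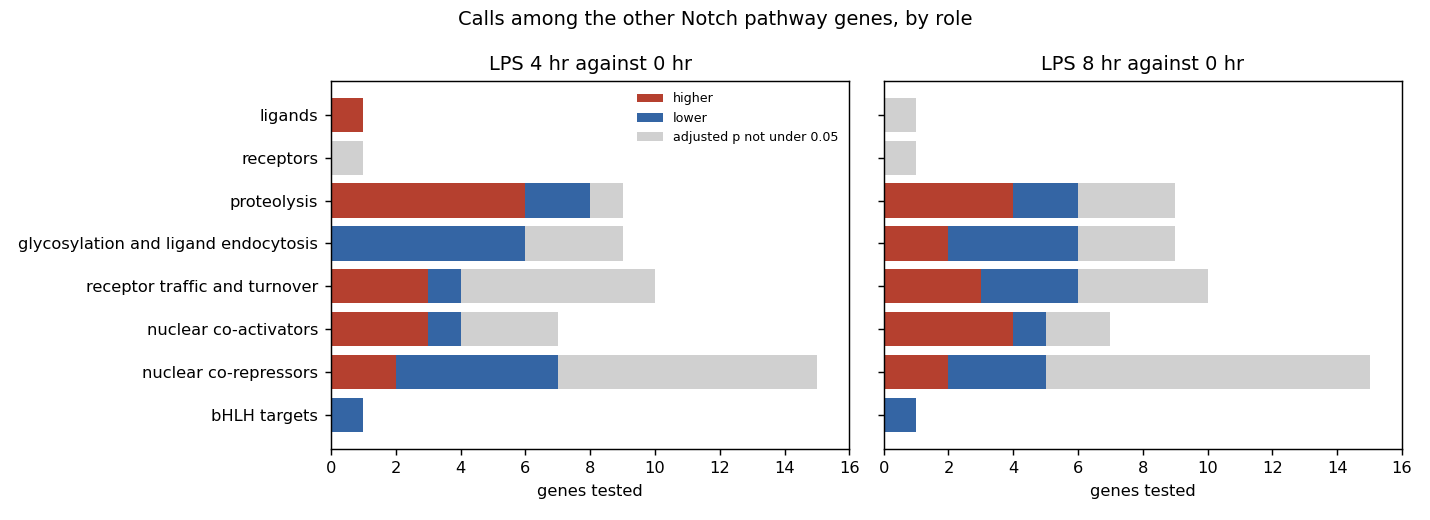
Number of tested pathway genes (horizontal axis) in each role that were higher (red), lower (blue) or did not pass (grey) at 4 hr (left) and 8 hr (right) of LPS against 0 hr, in the mean of the genotypes. In the proteolysis group 6 of 9 are higher at 4 hr, and in the glycosylation and ligand endocytosis group 6 of 9 are lower and none higher, 2 of the 6 having reached 1 CPM only at 0 hr.

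Among the ligands only Dll1, a Delta-like ligand, was listed, and its reads were few. The 0 hr libraries had 0, 1, 0 and 0 reads. At 4 hr WT had 3 and 13 reads and S513A had 11 and 10, and the 8 hr libraries had 0, 2, 1 and 0. Dll1 passed the filter on low values only through 4 hr libraries, where it was high, so its reads are given as a description. Jag2, Dll3, Dll4, Dlk1 and Dlk2 were not analysed here. Of the other receptors Notch4 had 24 and 16 reads in WT and 8 and 2 in S513A at 0 hr and 2 to 7 reads with LPS. It passed the filter only through the WT libraries of 0 hr, where it was high, so its reads are given as a description.

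Of the 9 genes of receptor cleavage, 6 rose and 2 fell at 4 hr, where 55.8% of all genes passed in either direction, and 4 rose and 2 fell at 8 hr (46.1%). Adam17, the sheddase related to Adam10, rose by 0.81 at 4 hr and 0.98 at 8 hr (adjusted p = 2.96e-06 and 8.53e-07). Of the gamma-secretase subunits, Psen2 changed by -1.31 and -1.04 (adjusted p = 1.49e-07 and 1.17e-06). Aph1b rose by 1.28 at 4 hr and Aph1c changed by -2.86 (adjusted p = 3.85e-09), but these neighbouring paralogs are nearly identical and reads may have been split between them. Furin, the convertase that cuts the receptor in the Golgi, rose by 0.62 at 4 hr and changed by -0.51 from 4 to 8 hr, a call that was lost without WT 8 hr replicate 1 (adjusted p = 0.0718).

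Of the 9 tested genes of receptor glycosylation and ligand endocytosis, 6 fell and none rose at 4 hr (55.8% of all genes passed), and 2 rose and 4 fell at 8 hr (46.1%). Without the 2 genes that reached 1 CPM only at 0 hr, 4 of 7 fell at 4 hr, and 2 rose and 2 fell at 8 hr. Lfng, a glycosyltransferase that tunes which ligand a receptor answers, had a log2 CPM of 5.49 and 5.12 in WT and 5.10 and 5.11 in S513A at 0 hr, and of 1.68 to 2.1 in all libraries at 4 hr. Its log2 fold change was -3.31 ± 0.12 at 4 hr (adjusted p = 2.26e-09) and -2.30 at 8 hr (adjusted p = 4.89e-08), with a rise of 1.00 from 4 to 8 hr. Mfng, a related glycosyltransferase, had 12 to 23 reads at 0 hr and 2 to 4 at 4 hr, and the ligand ubiquitin ligase Neurl1b 16 to 28 and 1 to 4. Both reached 1 CPM only in 0 hr libraries, and their reads are given as a description. Neurl3, another ligase of that family, fell by 0.55 at 4 hr and rose by 1.03 from 4 to 8 hr (adjusted p = 1.73e-05).

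Of the ubiquitin ligases of the Deltex family, Dtx3l had a log2 CPM of 5.11 to 5.22 at 0 hr, of 7.74 to 8.05 at 4 hr and of 7.38 to 7.82 at 8 hr. It rose by 2.78 at 4 hr (adjusted p = 5.53e-10) and 2.44 at 8 hr (adjusted p = 2.25e-09), and Dtx2 rose by 1.28 and 1.38. Among the nuclear partners, 3 of 7 coactivators rose and 1 fell at 4 hr, and 2 of 15 corepressors rose and 5 fell, shares near or below the 55.8% of all genes that passed. The coactivator Maml3, a paralog of Maml1, changed by -1.87 log2 at 4 hr and by -1.44 at 8 hr (adjusted p = 4.76e-06 and 5.06e-05). The corepressors L3mbtl3, Tle2 and Tle3 changed by 1.00, 0.77 and -0.79 from 4 to 8 hr. The call of Tle2 was lost, with adjusted p-values of 0.0567 to 0.0845, without WT 4 hr replicate 1, S513A 4 hr replicate 2 or replicate 1 of either genotype at 8 hr. Hes6, the only other Hes or Hey gene listed, changed by -0.73 log2 at 4 hr and by -0.54 at 8 hr (adjusted p = 1.34e-04 and 0.00149).

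The genes with the most similar pattern over the 12 libraries were found by the root mean square difference of log2 CPM centred on each gene's mean, as a description. For Jag1 these were Mmp14 (0.158) and Itgal (0.162), against a standard deviation of 1.02 of Jag1 itself. For Notch2 they were Apbb1ip (0.126) and Tet2 (0.146), and for Notch1 Thbs1 (0.138) and Dync1h1 (0.14). For Rbpj they were Acvr1b (0.0566) and Fhl3 (0.0836), for Adam10 Abcd3 (0.0558) was among them, and for Maml1 Zscan25 (0.0988) and Diaph1 (0.106). Hey1 had no gene as close, with Fam171a1 at 0.302 and March9 at 0.468.

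Other cells that use Notch could be present in PECs, and their markers were summed. Endothelial markers (4 of 6 listed) lay between 84.7 and 98.3 CPM at 0 hr, between 44.9 and 88.2 at 4 hr, and at 8 hr between 42.0 and 44.1 in WT and up to 74.1 in S513A. Most of this was Vwf, at 34.9 to 86.9 CPM, while Kdr lay at 3.65 to 10.9 CPM, Cdh5 at 0.044 to 1.52 and Pecam1 at 0.174 to 0.902. Mesothelial markers (4 of 5 listed) summed to 0.541 to 3.41 CPM, and of the T cell markers only Lck was listed, at 0.523 to 2.16 CPM. Eosinophil markers (2 of 5 listed) went from 15.3 to 18.5 CPM at 0 hr to 3.62 to 4.58 at 8 hr. The part of these cells in the Notch values was not tested.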

How the data were processed

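Polyadenylated RNA of 12 PEC libraries was sequenced and, per the authors' methods, reads were aligned with HISAT2 to mm10 without strand information and counted per gene with featureCounts 1.6.3. The deposited values are log2 CPM of 12850 genes. The program that made them and its gene filter are not given in the sources used here. Each value equalled log2 of the read count plus 0.5, scaled to an effective library size, so whole reads were recovered (largest departure 0.00103 of a read), and no fold change has a further pseudocount. Libraries held 9525979 to 12439960 reads. Genes without a symbol (112) stayed in the tests.

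Differences of the 6 group means were tested on log2 CPM with limma 3.58.1 (R 4.3.3, trended prior, two-sided) over 11885 genes with at least 1 CPM in 2 or more libraries, with Benjamini-Hochberg adjustment and a threshold of 0.05. The test was checked on simulated data. Gene positions are from RefSeq and exon lengths from GENCODE, both on GRCm38. The genes, pathway lists and tests were chosen with earlier results of these data known. All genes of the set are named. Of the pathway list, the 4 largest called rises and falls per LPS comparison whose libraries do not overlap within either genotype are named, with every listed ligand and receptor. Psen2 and Hes6 were named after their values were seen. Some genes are not reported here. Mutated and WT libraries carry the same replicate numbers, and the main fit did not pair libraries by them. Correlations of deviations between libraries of the same number ran from -0.375 to 0.417. With 2 libraries per group these correlations cannot show whether the numbers mark shared preparations.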

Additional observations from a re-analysis of the deposited data

Results flagged for a closer look

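For 4 genes every S513A library lay below every WT library at 0 hr and above every WT library at 8 hr of LPS, so that the direction of the genotype difference turned between these times. The excess rise of S513A over WT from 0 to 8 hr was 0.58 on the log2 scale for Jag1 (adjusted p = 0.237), 1.10 for Notch1 (adjusted p = 0.193), 0.94 for Notch2 (adjusted p = 0.211) and 0.33 for Rbpj (adjusted p = 0.308). These limma tests of the difference did not pass for any of the 4 genes. The factor that replicates shared had scores of 0.27 and 0.17 in WT and -0.15 and -0.29 in S513A at 0 hr. At 8 hr its scores were -0.12 and -0.27 in WT and 0.61 and -0.22 in S513A. With library scores on this factor as a term, a fit added after seeing the data, Jag1 at 0 hr went from -0.15 to 0.0484. The scores come from the same libraries, so that fit cannot separate the factor from the genotype. Of all 11885 genes, 57.5% had genotypes that did not overlap at 0 hr and 53.6% at 8 hr, in either direction. The share of all genes with the same turn was not computed. The separation for Jag1 at 0 hr was between 20.7 CPM in WT replicate 1 and 20.7 CPM in S513A replicate 1.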

How the results depend on the processing

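The rises of Jag1, Notch1, Notch2 and Rbpj and the fall of Adam10 at 4 and 8 hr in the mean of the genotypes kept their direction and their call under every alternative, single libraries left out included, and 6 genes passed at 8 hr in each except with genes under a mean of 5 CPM removed, Hey1 among them, which gave 5. At 4 hr 5 to 7 passed: Hey1 lost its call with quantile normalization and with a prior without a trend, and Maml1 gained one with the factor between replicates as a term, with library scores and without WT 4 hr replicate 2. From 4 to 8 hr the 2 calls became 1 with a prior without a trend and with only the libraries compared, and 1 to 2 with single libraries left out. The WT calls at 4 hr ranged from 3 to 5 and those at 8 hr from 2 to 5 with single libraries left out. At 8 hr in WT, 2 genes passed with a prior without a trend, and 7 with only the libraries compared and with the factor between replicates as a term. Between S513A and WT, the factor as a term gave 2 calls before LPS, 3 at each of 4 and 8 hr, and 5 in the interaction at 8 hr, where the reported fit gave 0, but it also called 13.2%, 8.9%, 18.8% and 28.5% of all genes. By construction it leaves the differences as they are and lowers the spread, and it was estimated from the same residuals. Only the libraries compared gave 2 calls at 0 hr, with 5.83% of all genes. A version with library scores, added after seeing the data, gave 0 calls at 0 hr and turned Jag1 at 0 hr from -0.15 to 0.0484 and Maml1 at 8 hr in S513A from 0.12 to -0.11. The directions that turned without a single library belonged to values that were not called: Notch1 from 4 to 8 hr (-0.11 to 0.34), Rbpj from 4 to 8 hr (-0.18 to 0.002, and 0.0123 with quantile normalization), Maml1 at 4 hr in WT (-0.52 to 0.15) and at 8 hr in S513A (-0.0921 to 0.34), and Notch2 (-0.94 to 0.0125) and Rbpj (-0.35 to 0.0054) between genotypes at 4 hr. For the other pathway genes, the 17 calls from 4 to 8 hr became 27 with the factor as a term, 27 with library scores and 10 with only the libraries compared, and 7 to 19 without single libraries (7 without WT 8 hr replicate 1, 10 without S513A 8 hr replicate 1, 11 without S513A 4 hr replicate 2). Fitting the replicate block left the number called as reported, 6 at 4 hr and 6 at 8 hr in the mean of the genotypes. At 8 hr, however, Adam10 lost its call in WT (adjusted p = 0.0585) and S513A (adjusted p = 0.0718). Hey1 gained one in S513A (adjusted p = 0.0447). Whether the replicate numbers pair the libraries is not known. Where no other value is named, the cause was not tested. Depth limits Hey1, Dll1 and Notch4, with 0 to 31 reads.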
